A study of Danio rerio with 6 samples.

Results

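In the zebrafish embryo, 10 genes known from red blood cells were followed, for haem synthesis, iron import, the red cell membrane and red cell control. These were *alas2*, *urod*, *fech*, *cahz*, *slc4a1a*, *slc25a37*, *epb41b*, *sptb*, *klf1* and *blvrb*. They were chosen by name, with earlier results of these data known, among the 47444 named rows of a table of read counts. Of the 10, 9 passed the filter on low counts. The exception was *alas2*. RNA came from whole embryos of *Danio rerio* at 1 day post-fertilisation, in 3 libraries labelled as knockdown of *rapgef1b*, an exchange factor for Rap GTPases, and 3 control libraries labelled wild type. The study asked what *rapgef1b* does in the neural crest and presomitic mesoderm, so the red cell genes lie outside its stated question. The labels name neither the depletion reagent nor any reagent given to the controls, and they do not say how many embryos were pooled or whether replicates were separate clutches. The p-values therefore measure the spread between these libraries, which may be technical.

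The first red cells of a fish embryo, the primitive erythrocytes, form in the mesoderm of the trunk and enter the circulation around the stage sampled here. As they mature they fill with haemoglobin, which needs globin chains, haem made by a chain of enzymes that starts in the mitochondrion and ends there, and iron brought in by transferrin and the mitochondrial carrier mitoferrin. They also build a membrane in which the anion exchanger band 3 is tied to a spectrin network through ankyrin and protein 4.1. Klf1, with Gata1, switches on many of these genes.

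Libraries held 2114945 to 2229487 counts in the knockdown group and 2039455 to 3801923 in the controls. Levels are given in CPM, counts scaled to a common library size. For the targeted gene, *rapgef1b*, the groups overlapped. It had 142, 106 and 140 CPM in the libraries labelled knockdown and 109, 111 and 109 CPM in controls. The log2 fold change was 0.24 (standard error 0.14, adjusted p = 0.386), so its RNA showed no clear change either way. Its protein was not measured here. Groups are therefore named by their labels. A gene was called when its p-value, from edgeR's quasi-likelihood test adjusted by Benjamini-Hochberg over all 15606 tested rows, was under 0.05. By that rule 4.29% of tested rows were called, 2.01% higher and 2.27% lower in the libraries labelled knockdown.

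Of the 9 tested members, 1 passed the test: *slc4a1a* was lower in the libraries labelled knockdown, at about 0.546 of the control level. No member was called higher. Fold changes were below 0 for 7 members and above 0 for *cahz* and *slc25a37*. The median log2 fold change of the 9 was -0.31, beside 0.011 over all tested rows, of which 48.8% lay below 0. At an unadjusted p-value under 0.05 there were 6 members, where 18.1% of all tested rows reached that level. The groups did not overlap for 3 members, *slc4a1a* lower and *cahz* and *slc25a37* higher, beside 23.2% of all tested rows. Members and the gene lists below were chosen with earlier results of these data known. Such shares and medians therefore describe them and are no test of a set. In whole-embryo RNA, fewer red cells, less of a transcript per red cell and a change in other tissues cannot be told apart.

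**Figure D1:**
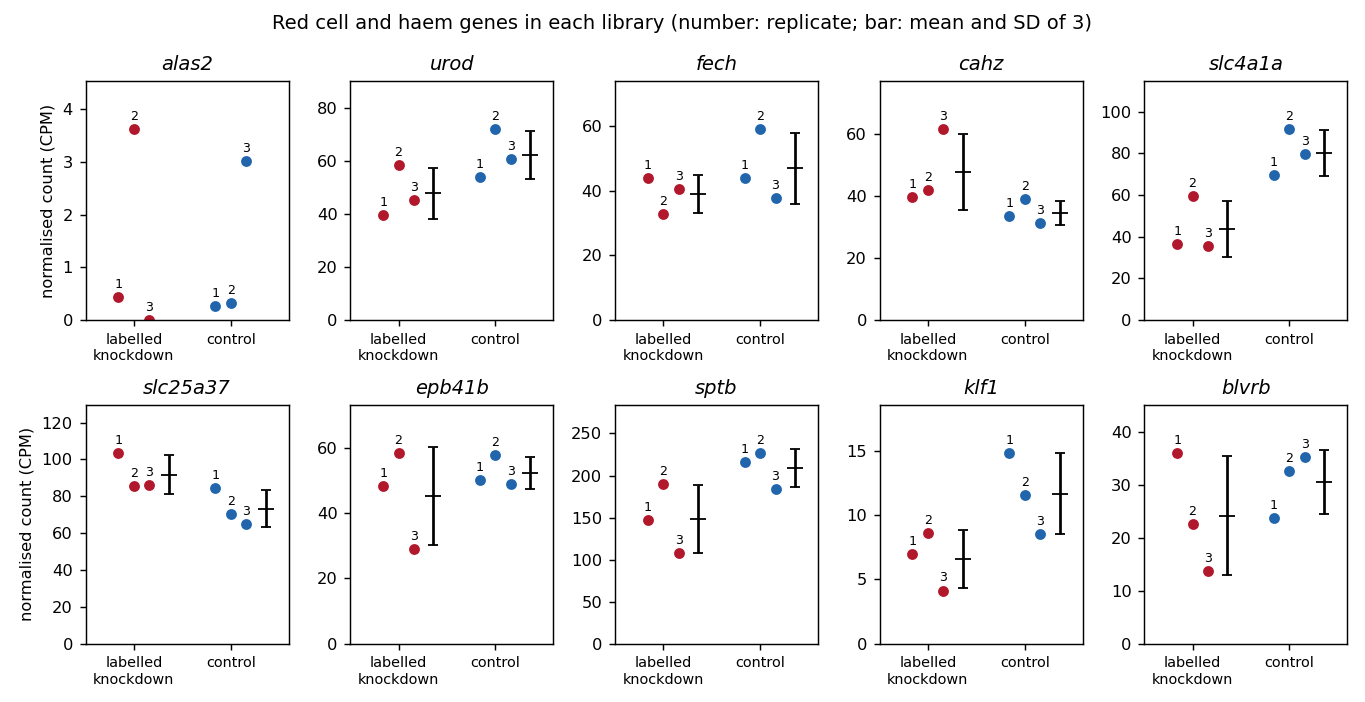
Normalised count in CPM (y axis, from 0) of the 10 genes in each library, with the libraries labelled knockdown in red on the left and controls in blue on the right; numbers are replicates and black bars the mean and SD of 3, left out for *alas2*, which was not tested. *slc4a1a* is separated downwards, and *cahz* and *slc25a37* upwards. Among the tested members, knockdown replicate 3 is the lowest library for *sptb*, *epb41b*, *klf1* and *blvrb*. It is also the lowest for *slc4a1a*, just below knockdown replicate 1.

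The called member is a membrane gene. *slc4a1a*, which encodes band 3, had 36.6, 59.4 and 35.4 CPM in the libraries labelled knockdown, against 69.5, 91.8 and 79.6 CPM in controls. Every library labelled knockdown lay below every control. The means were 43.8 ± 13.5 CPM in the libraries labelled knockdown and 80.3 ± 11.2 CPM in controls (SD, n = 3 each), for a log2 fold change of -0.87 (standard error 0.19, 95% confidence interval -1.26 to -0.48, adjusted p = 0.0102). Without control replicate 2 the log2 fold change was -0.76 and the adjusted p was 0.0872, so the call was lost. The adjusted p-value ranged from 1.33e-05 to 0.0872 over the alternatives tried.

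*sptb*, the beta-spectrin of the red cell skeleton, had 147, 190 and 108 CPM in the libraries labelled knockdown and 216, 227 and 184 CPM in controls. The groups overlapped through 1 library, knockdown replicate 2, which lay just above control replicate 3. The log2 fold change was -0.50 (95% confidence interval -0.85 to -0.15; adjusted p = 0.101). Without knockdown replicate 2 it was -0.72 (adjusted p = 0.0144), a call. The replicate block, which fits the replicate number as a term, also called it, at -0.52 and 0.0368, and so did the fit with no filter on low counts, at -0.52 and 0.0179. Without knockdown replicate 3 it was -0.32.

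*epb41b*, a gene for protein 4.1, which links spectrin and actin to the membrane, had 48.4, 58.5 and 28.9 CPM in the libraries labelled knockdown and 50.1, 57.8 and 48.8 CPM in controls. Only knockdown replicate 3 stood well apart, and knockdown replicate 2 was above all controls. The log2 fold change was -0.21 (95% confidence interval -0.62 to 0.21; adjusted p = 0.633), and it was 0.023 without knockdown replicate 3.

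*klf1*, the erythroid Krüppel-like transcription factor, was the member with the fewest counts among those tested. Its row held 16, 19 and 9 reads in the libraries labelled knockdown, against 56, 36 and 17 in controls, or 6.98, 8.62 and 4.13 CPM in the libraries labelled knockdown and 14.9, 11.6 and 8.56 CPM in controls. Knockdown replicate 2 and control replicate 3 were nearly level, and the other libraries did not overlap. The log2 fold change, -0.86, was close in size to that of *slc4a1a*, but its standard error was 0.31, its 95% confidence interval -1.52 to -0.20 and its adjusted p 0.133. It was not called in any of the alternatives that could test it.

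Haem synthesis was covered by 3 members. *urod*, uroporphyrinogen decarboxylase, had 39.7, 58.5 and 45.5 CPM in the libraries labelled knockdown, against 54.1, 72.2 and 60.9 CPM in controls. Its log2 fold change was -0.38 (95% confidence interval -0.74 to -0.024; adjusted p = 0.237). *fech*, the ferrochelatase that places iron in the ring, had 44.0, 32.7 and 40.4 CPM in the libraries labelled knockdown and 43.8, 59.1 and 37.8 CPM in controls. The groups overlapped widely and the log2 fold change was -0.27 (-0.66 to 0.11; adjusted p = 0.465). It depended on control replicate 2, the highest library, and was -0.075 without it.

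*alas2* encodes the red cell form of the enzyme that starts the pathway. Its row held 1, 8 and 0 reads in the libraries labelled knockdown, against 1, 1 and 6 in controls, so it was near 0 in both groups. A second row of the same name held 1, 1 and 0 reads in the libraries labelled knockdown and 1, 2 and 0 in controls. At 9 reads in all for the libraries labelled knockdown and 8 for the controls in the main row, no difference could be detected at this depth. *gata1a*, the erythroid master regulator, also had a pair of rows, and both were at 0 in all 6 libraries. Among the 131 listed genes with a row, 6 of the 31 with a second row were at 0 everywhere in the main row, against 1 of the 100 with a single row. Over the whole table the share at 0 in all rows of the name was 27.2% of the 5998 names with a second row and 32.8% of the 35449 with one row. Whether reads were lost between paired rows was not tested, so the levels of *alas2* and *gata1a* are uncertain. The 7 tested globin rows, band 3 and *cahz*, in contrast, held counts in every library.

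The remaining members handle iron, carbon dioxide and biliverdin. *slc25a37*, mitoferrin, which carries iron into the mitochondrion of developing red cells, had 104, 85.7 and 85.9 CPM in the libraries labelled knockdown, against 84.6, 70.3 and 65.0 CPM in controls. *cahz*, a red cell carbonic anhydrase, had 39.7, 41.7 and 61.6 CPM in the libraries labelled knockdown, against 33.4, 38.9 and 31.2 CPM in controls. All libraries labelled knockdown lay above all controls for both genes, by narrow margins: 85.7 against 84.6 CPM and 39.7 against 38.9 CPM at the nearest pair. Neither was called. The log2 fold changes were 0.32 (95% confidence interval 0.0089 to 0.62; adjusted p 0.260) for *slc25a37* and 0.46 (0.068 to 0.85; adjusted p 0.185) for *cahz*. Without knockdown replicate 3, *cahz* was at 0.23. *blvrb*, a biliverdin and flavin reductase, spread most, with 36.2, 22.7 and 13.8 CPM in the libraries labelled knockdown and 23.9, 32.8 and 35.2 CPM in controls. Its log2 fold change was -0.31 (-0.88 to 0.26; adjusted p 0.592), and it ran from -0.72 without knockdown replicate 1 to -0.036 without knockdown replicate 3.

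**Figure D2:**
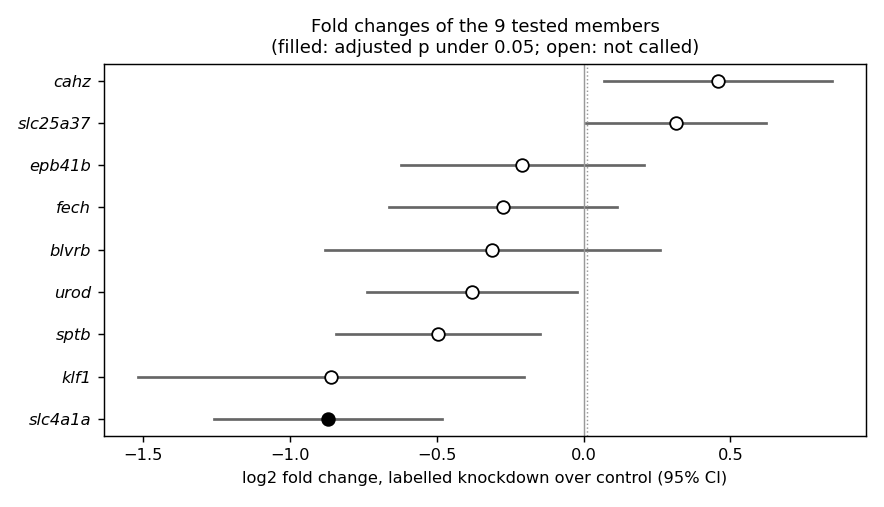
Log2 fold change of libraries labelled knockdown over controls (x axis) with its 95% confidence interval for the 9 tested members (y axis), 3 libraries per group; the dotted line is the median of all tested rows. *slc4a1a* at -0.87 is the only filled, called point, and *cahz* at 0.46 and *slc25a37* at 0.32 lie on the other side of 0.

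Fold changes of the members lay on both sides of 0. A ratio of counts of a pair of members within a library needs no scaling factor. There were 0.923, 1.42 and 0.575 *slc4a1a* reads per *cahz* read in the libraries labelled knockdown, against 2.08, 2.36 and 2.55 in controls. The *sptb* to *slc25a37* ratio was 1.42, 2.21 and 1.26 in the libraries labelled knockdown, against 2.55, 3.23 and 2.83 in controls. Neither pair of groups overlapped, and within the skeleton the *epb41b* to *sptb* ratio was 0.302 ± 0.032 in the libraries labelled knockdown and 0.251 ± 0.017 in controls (SD, n = 3 each). The groups did overlap for the other ratios computed. These were *fech* to *urod*, *slc4a1a* to *sptb*, and *rhag*, a gene outside the members, to *slc4a1a*. Pairs were chosen after their values were seen, and no ratio was tested. *slc4a1a* and *cahz* were already apart in opposite directions, so the separation of their ratio was built in. The *sptb* to *slc25a37* ratio likewise sets a lower gene against one already apart upwards. These ratios therefore add no evidence to the values above. The size of the shift also differed between libraries. The median deviation of the 9 tested members from the control mean, on the log2 CPM scale, was -0.11, -0.13 and -0.83 in knockdown replicates 1, 2 and 3, and -0.055, 0.15 and -0.13 in controls. By this measure only knockdown replicate 3 lay below the controls. Without it the median log2 fold change of the members was -0.31, the same to 2 decimals as with it, and without control replicate 1 it was -0.48. Single members did move without knockdown replicate 3. *klf1* was then at -0.63, *sptb* at -0.32, *blvrb* at -0.036 and *epb41b* at 0.023, all nearer 0. *fech* and *slc25a37* moved away from 0, to -0.31 and 0.35, and the other tested members moved towards it.

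Other genes of the red cell membrane and skeleton were read from a list of 14, of which 12 had a row and 11 were tested. There were 3 called, all lower (0 without control replicate 2, 1 without control replicate 3 or knockdown replicate 3, and 2 without control replicate 1 or knockdown replicate 1), and 8 of the 11 lay below 0, with a median of -0.23 (-0.40 without knockdown replicate 2 and -0.12 without knockdown replicate 3). *rhag*, the Rh-associated glycoprotein, which sits with band 3 in the membrane, had 13.5, 20.4 and 9.19 CPM in the libraries labelled knockdown, against 32.4, 35.0 and 28.2 CPM in controls. The groups did not overlap, and the log2 fold change was -1.15 (standard error 0.24; adjusted p = 0.00741). Without control replicate 2 the adjusted p of *rhag* was 0.0529 (range 2.35e-05 to 0.0529 over its alternatives). *aqp1a.1*, a water channel of red cells and vessels, had 16.1, 26.3 and 18.4 CPM in the libraries labelled knockdown and 29.4, 47.5 and 33.2 CPM in controls, a log2 fold change of -0.86 (adjusted p = 0.0337). It lost its call without control replicate 2 (0.257) or 3 (0.0654), without knockdown replicate 1 (0.104) or 3 (0.105), and in DESeq2 (0.0595). *tmod4*, a tropomodulin best known from skeletal muscle, was called at -0.59 (adjusted p = 0.0251), and lost its call without control replicate 1, 2 or 3 (0.109, 0.152 and 0.0627) or knockdown replicate 3 (0.0727). The ankyrin gene *ank1a*, the second protein 4.1 gene *epb41a* and the second band 3 gene *slc4a1b* were at -0.28, -0.089 and -0.69, none called, at adjusted p of 0.381, 0.820 and 0.330. *epb42* was not analysed here.

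Embryonic globins are the main cargo of these cells. Of 7 tested rows 4 fell, and all 7 lay below 0 in every alternative that tested them, with a median of -1.21. The number called was 2 without control replicate 2, knockdown replicate 1 or knockdown replicate 3, and 6 without knockdown replicate 2. *hbbe1.3* had 49.7, 49.0 and 29.4 CPM in the libraries labelled knockdown, against 116, 122 and 120 CPM in controls, and the other called rows were *hbae1.3*, *hbae3* and *hbbe3*, at log2 fold changes of -1.60, -1.07 and -0.69. *hbae1.3* lost its call without control replicate 2 (adjusted p = 0.202) or 3 (0.0878), without knockdown replicate 1 (0.0921) or 3 (0.118), and in DESeq2 and limma-voom. *hbbe3* lost it without control replicate 1 (0.147) or 2 (0.0744) or knockdown replicate 3 (0.0611), and *hbae3* without knockdown replicate 1 (0.110). Some globin genes are near-identical copies. Which rows this affects was not tested, so single rows are uncertain. Summed over the list, globin reads made up 313, 429 and 249 CPM in the libraries labelled knockdown, against 696, 818 and 555 CPM in controls.

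Enzymes and signalling genes of the red cell gave no call among 10 tested, with 8 below 0 and a median of -0.34 (-0.22 without knockdown replicate 3). At an unadjusted p-value under 0.05 there were 4, where 18.1% of all tested rows reached that level. *nt5c3a*, a pyrimidine nucleotidase of maturing red cells, was at -0.49 (adjusted p = 0.0671), with adjusted p from 0.0265 without knockdown replicate 2 to 0.226 without control replicate 2. *prdx2*, a peroxiredoxin abundant in red cells, *pklr*, the red cell and liver pyruvate kinase, and *ca2*, another carbonic anhydrase, were at -0.42, -0.35 and -0.45, at adjusted p of 0.132, 0.163 and 0.101. The groups did not overlap for any of these 4 genes, which were named after their values were seen. In the list this held for 5 of the 10, all lower, beside 11.9% of all tested rows. *epor*, the erythropoietin receptor, was at 0.22 (adjusted p = 0.787).

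Of the other haem synthesis genes, all 12 listed were tested, 7 lay above 0 and 5 below, with a median of 0.11 (0.020 without knockdown replicate 2 and 0.19 without knockdown replicate 1), and 1 was called. The enzymes *alas1*, *alad*, *hmbsa*, *cpox* and *ppox* had log2 fold changes from 0.11 to 0.28, and *hmbsb* and *uros* had -0.30 and -0.22, with adjusted p from 0.351 to 0.780. *alas1*, the form of the first enzyme used outside red cells, had 68.4, 69.4 and 86.8 CPM in the libraries labelled knockdown and 67.1, 63.9 and 52.4 CPM in controls. The call was *slc25a38a*, a mitochondrial glycine carrier that supplies the first step. It rose to 18.3, 13.2 and 19.8 CPM in the libraries labelled knockdown, against 3.45, 6.74 and 6.04 CPM in controls, a log2 fold change of 1.69 (standard error 0.30; adjusted p = 0.0023). Its paralog *slc25a38b* was at 0.11. *slc25a38a* kept its call in each alternative tried, with adjusted p-values up to 0.0312.

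Haem breakdown and export gave 1 call among 9 tested genes, with a list median of 0.031. That median had no fixed sign, at -0.085 without knockdown replicate 1, -0.046 without control replicate 2, 0.057 without control replicate 1, and 0.13 and 0.097 when knockdown replicate 2 or 3 was left out. *flvcr1*, which encodes a haem exporter also known to carry choline, rose to 33.1, 36.7 and 57.0 CPM in the libraries labelled knockdown, against 14.3, 19.3 and 19.1 CPM in controls. The groups were far apart, with a log2 fold change of 1.28 (standard error 0.22; adjusted p = 0.00201), and the call held in each alternative tried. *hmox1a*, the haem oxygenase that makes the biliverdin on which Blvrb acts, had 34.0, 37.2 and 35.8 CPM in the libraries labelled knockdown, against 44.0, 70.0 and 50.9 CPM in controls. The groups did not overlap, but at -0.62 (adjusted p = 0.0585) it was not called (adjusted p range 0.0137 to 0.383 over its alternatives, with the highest without control replicate 2, where the fold change was -0.40; the replicate block gave 0.043, a call).

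Iron handling gave 1 call among 12 tested genes, with a list median of 0.11, which was 0.040 without control replicate 3 and -0.0093 without knockdown replicate 3. *tfa*, the transferrin that carries iron in plasma, fell to 433 ± 103 CPM in the libraries labelled knockdown, against 972 ± 32.8 CPM in controls (SD, n = 3 each), a change of -1.17 on the log2 scale (adjusted p = 0.000238). It is made by liver and yolk tissue rather than by red cells, and it kept its call in each alternative tried. *tfr1a*, the transferrin receptor of red cell precursors, had a log2 fold change of -0.24 (adjusted p = 0.416), between -0.39 without knockdown replicate 2 and -0.11 without knockdown replicate 3.

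**Figure D3:**
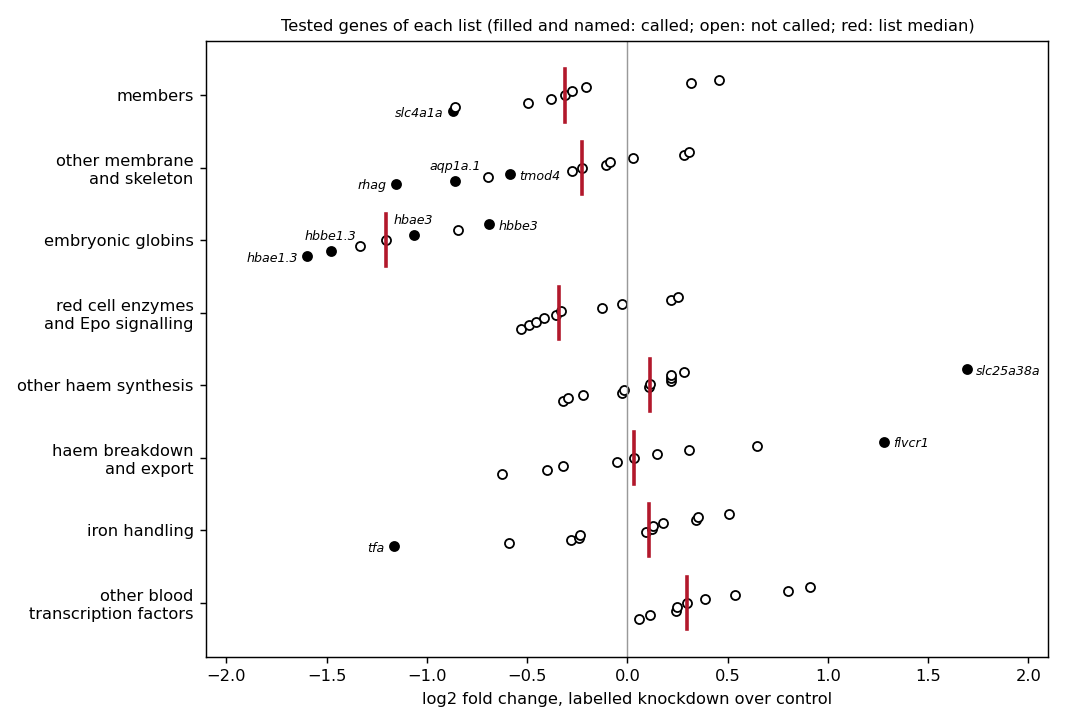
Log2 fold change of libraries labelled knockdown over controls (x axis) for each tested gene of 8 lists (y axis); filled, named points were called, open points were not, and red bars are list medians. Globin points all lie below 0 with a median of -1.21, haem synthesis points lie around 0 apart from *slc25a38a*, and the other blood transcription factors all lie above 0.

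Transcription factors of the blood lineage other than *klf1* lay on the opposite side of 0 from most members. All 9 tested had log2 fold changes above 0, with a median of 0.29 (0.46 without knockdown replicate 2), and none was called by edgeR over all rows. Of all 15606 tested rows, 7995 lay above 0. At an unadjusted p-value under 0.05 there were 2, where 18.1% of all tested rows reached that level. The count above 0 was 9 under each scaling, and 8 without control replicate 3 or knockdown replicate 1. The number of these 9 called under other settings ran up to 2, among them 1 without a filter on low counts and 0 in DESeq2. *tal1*, needed for blood and vessel precursors, had 44.5, 30.4 and 49.2 CPM in the libraries labelled knockdown and 32.1, 36.6 and 32.2 CPM in controls. Its log2 fold change was 0.29 (95% confidence interval -0.095 to 0.69; adjusted p = 0.429), with 0.15 without knockdown replicate 3 and 0.46 without knockdown replicate 2.

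A pair of this list, *lmo2*, a partner of Tal1, and *runx1*, a regulator of blood stem cells, was singled out after its values were seen. *lmo2* had 20.1, 18.6 and 31.2 CPM in the libraries labelled knockdown, against 12.7, 14.1 and 13.1 CPM in controls. *runx1* had 13.5, 11.8 and 13.3 CPM in the libraries labelled knockdown, against 6.10, 6.74 and 8.06 CPM in controls. Neither overlapped, and their log2 fold changes were 0.80 and 0.91 at adjusted p of 0.0584 and 0.0619. Over the alternatives the adjusted p of *lmo2* ran from 0.0344 without a filter to 0.322 without knockdown replicate 3, where its log2 fold change was 0.53, and it was called without knockdown replicate 2, at 0.035. That of *runx1* ran from 0.0452 with library sizes alone to 0.250 in DESeq2, and DESeq2 gave *lmo2* 0.170. *gfi1aa*, a repressor known from primitive red cells, failed the filter, with 13, 5 and 8 reads in the libraries labelled knockdown against 0, 1 and 1 in controls. Its mean in the libraries labelled knockdown, 3.87 CPM, was 3.55 times the level that 3 counts in each control library would give. That ratio makes no allowance for counting error in so few reads. *gfi1aa* too was named after its values were seen, and it was not part of the main test. In the edgeR fit with no filter on low counts its adjusted p was 0.000675, and DESeq2 gave it no adjusted p.

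**Figure D4:**
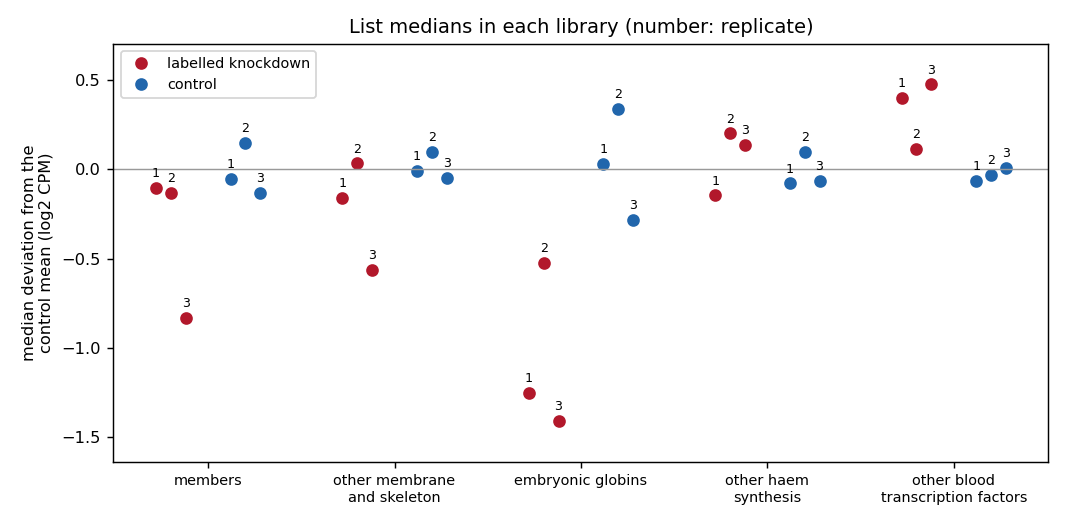
Median deviation of the tested genes of 5 lists from the control mean, in log2 CPM (y axis), in each library labelled knockdown (red) and each control (blue), with replicate numbers. Members reach -0.83 in knockdown replicate 3 and lie at -0.11 and -0.13 in replicates 1 and 2, globins lie at -1.25, -0.53 and -1.41, and the other blood transcription factors at 0.40, 0.12 and 0.47.

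Markers of neighbouring cell types were read beside these results. Of 14 endothelial genes 13 were tested and 1 was called, *kdr*, a receptor for vascular growth factor, higher at 0.80 (adjusted p = 0.00741, and 0.0744 without control replicate 2). Of the 13, 8 lay below 0 and 5 above. The markers *kdrl*, *cdh5*, *fli1a* and *tie1* were at -0.37, -0.41, -0.27 and -0.12, and *egfl7* and *etv2* at 0.16 and 0.59, none called. At an unadjusted p-value under 0.05 there were 5 of the 13, where 18.1% of all tested rows reached that level. The groups did not overlap for 4 genes that were higher and 2 that were lower, beside 23.2% of all tested rows. The list's median was -0.15 (-0.049 without knockdown replicate 2). Its summed level ran from 422 to 494 CPM in the libraries labelled knockdown and from 433 to 441 CPM in controls. Of that sum *kdr* held 95.5, 81.6 and 127 CPM in the libraries labelled knockdown and 59.4, 52.0 and 63.9 CPM in controls. *flt1* was at 0 throughout, in its main row and its second row, so its level is uncertain too. Of 12 primitive myeloid genes 7 were tested, with a median of 0.060 that became -0.078, 0.13 and 0.029 when knockdown replicate 1, 2 or 3 was left out, and 0.014 without control replicate 1. *cebpa* was higher at 0.70 and *csf1ra*, also a gene of yellow pigment cells, lower at -1.22, at adjusted p of 0.0169 and 0.0105. *cebpa* lost its call without control replicate 1, 2 or 3 (0.0933, 0.0937 and 0.0717) or knockdown replicate 1 (0.0683), and *csf1ra* without control replicate 1 or 2 (0.100 and 0.0553). The myeloid sum was 161 to 228 CPM in the libraries labelled knockdown and 159 to 175 CPM in controls. Of that sum *cebpa* alone held 105, 66.7 and 82.7 CPM in the libraries labelled knockdown and 52.2, 52.7 and 51.9 CPM in controls. The markers *spi1b*, *lcp1* and *mpx* held counts in every library, at 0.46, 0.060 and -0.29, none called, and *mfap4* was not tested. *lyz*, *mpeg1.1* and *coro1a* were at 0 in every library. Each of these also has a second row at 0, so their levels are uncertain, as for *alas2* and *gata1a*. Of 6 thrombocyte genes 3 were tested and all lay below 0. *thbs1b*, a thrombospondin not limited to thrombocytes, was called at -0.73 (adjusted p 0.00495), and *itga2b* was at 0. The sum was 94.6 to 118 CPM in the libraries labelled knockdown and 153 to 190 CPM in controls. Most of it was *thbs1b*, at 79.8, 93.9 and 76.3 CPM in the libraries labelled knockdown and 150, 119 and 147 CPM in controls. For *gp1bb* the groups overlapped, at -0.48 (adjusted p 0.457), and *mpl* was not tested. Of 7 pronephros genes 6 were tested and none was called by edgeR, with none at an unadjusted p-value under 0.05, and the sum was 381 to 445 CPM in the libraries labelled knockdown and 392 to 416 CPM in controls. The part of these cell types in the results above was not tested.

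The profile of the 9 tested members over the 6 libraries, taken as the mean of their standardised log2 CPM, was followed most closely by *sptb* among the members (Pearson r = 0.94) and ran against *cahz* (r = -0.67) and *slc25a37* (r = -0.37). Each member is part of that mean, which pulls its r upwards. Outside the members, and leaving out clone, locus and second rows, the rows most like it were *sema5a*, *pds5b*, *pbx1a*, *gabrb4* and *elavl4*, at r = 0.986 to 0.990, where 8 rows of any name lay at or above the lowest of these. All 5 had log2 fold changes between -0.37 and -0.15 and none was called. With 6 libraries that share their groups, 276 rows reached r = 0.9, so the measure describes these libraries only.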

How the data were processed

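Total RNA depleted of ribosomal RNA was sequenced on an MGISEQ-2000, per the labels' protocols. The authors deposited raw counts, with gene names in rows and libraries in columns. The submitters' processing notes name FastQC, cutadapt, STAR, DESeq2 and GRCz11. The counting tool, annotation and strand setting are not given in the sources used here, so overlapping and antisense genes cannot be separated. Columns were matched through the library names in the sample descriptions. The third control's description carries the second control's number, so its title was followed. A row that names no gene held 0.141% to 0.189% of the counts and was left out of library sizes and tests.

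Counts were filtered with filterByExpr (minimum count 10, minimum total 15), scaled with TMM factors and tested with edgeR 4.0.16 in R 4.3.3 (glmQLFit with robust=TRUE, group as the only term). The fit was also run on data simulated with the spread fitted to these libraries, where some of the changed genes were not called. P-values were adjusted with Benjamini-Hochberg over 15606 rows. The standard error is the fold change divided by the square root of F. Log2 CPM values have a prior count of 2. The median standard error was 0.22, and confidence intervals cover the spread between 3 libraries only. Libraries of 1 group differed by more than counting error (chi-square per degree of freedom 3.27 to 7.64), so no library was counted as a repeat.

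The members and lists were chosen with earlier results of these data known. List genes without a row of their name were looked up through RefSeq synonyms. The text names all members, *rapgef1b*, up to 4 called genes per list by size of change, the haem enzymes, *gata1a*, *tal1*, *hmox1a*, *tfr1a* and *alas1*, and the 5 rows most like the members; all other genes were named after their values were seen. A further gene of the naming rule is not reported here. Alternatives were DESeq2 1.42.0, limma-voom (limma 3.58.1), other scalings and filters, robust=FALSE, library sizes without globin and mitochondrial rows, copy rows added together, the replicate block and leaving out each library.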

Additional observations from a re-analysis of the deposited data

How the results depend on the processing

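The direction of each tested member was the same in each alternative that tested it, except *epb41b*, which ran from -0.44 to 0.023 without 1 library, the highest without knockdown replicate 3. Leaving out 1 library moved the log2 fold change of *slc4a1a* from -1.16 to -0.75, losing the call only without control replicate 2, and that of *sptb* from -0.72 to -0.32. *sptb* was called with no filter on low counts (-0.52), with the replicate block (-0.52) and without knockdown replicate 2. The number of members called was 2 with no filter and 2 with the replicate block, and 0 to 2 without 1 library. Over all rows, 669 of 15606 were called, and 1004 of 31074 with no filter. Without 1 library 218 to 914 were called, of 16111 to 16328 tested rows. The listed genes other than members had 14 calls, and 6 to 19 without 1 library. *hmbsa* ran from -0.0024, without knockdown replicate 2, to 0.24 without 1 library. The cause of these changes was not tested. Fits without 1 library hold fewer samples. With library sizes alone, 58.9% of calls were higher, against 46.9% with TMM factors. Deviations of same-numbered libraries were nearly uncorrelated (r = -0.014, 0.066 and 0.069). With 3 libraries a group this cannot show whether they shared a clutch or batch. The block gave 772 calls over all rows. Rows with few counts, such as *alas2* and *klf1*, hold little information on a difference. For *alas2*, whether depth or reads lost between paired rows kept its count low was not tested.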
